A study of Homo sapiens with 42 samples.

Results

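In RCH-ACV leukaemia cells (RCH in the sample titles), an arm carrying the hairpin sh2 against NSD2 was compared with an arm carrying a non-targeting hairpin (NT). The comparison rests on 6 of the 42 RNA-seq samples of the series, 3 per arm, taken as the columns of the RCH count table that bear these 2 hairpin names. The series measured gene expression in 5 lines of acute lymphoblastic leukaemia (ALL), a cancer of immature lymphocytes. NSD2 or its E1099K form was overexpressed in 2 of the lines, and NSD2 was targeted with hairpins in RCH, RS411 and SEM. Further libraries served as reference points, namely another hairpin arm of RCH named sh5 and the NT and sh2 arms of RS411 and SEM, each with 3 replicates. The series text names sh2 as the knockdown, whereas sh5 appears only in sample titles. All of these cells were untreated, were cultured in serum-supplemented RPMI medium and were not taken past passage 20. Each arm is 1 engineered line with 1 hairpin, and the labels do not say whether it was a clone or a pool. The labels do not state that the replicates came from separate cultures. The spread behind each p-value is thus that of these libraries and may be technical.

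NSD2 places methyl groups on lysine 36 of histone H3 (H3K36), and dimethylated H3K36 lies over active chromatin, where it opposes the repressive methylation of lysine 27 by the Polycomb complex. The E1099K substitution raises the activity of the enzyme, occurs in childhood ALL and is reported for RCH-ACV. RCH-ACV is a pre-B-cell leukaemia line. Pre-B cells display CD10 (encoded by MME) and the pre-B receptor, and as they mature they gain CD20 (encoded by MS4A1), CD22 and higher amounts of class II antigen-presenting molecules.

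Depth, as the total of gene-assigned reads, was 31146309 to 55001132 in the NT libraries and 21941718 to 27459446 in the sh2 libraries. Every sh2 library was thus shallower than every NT library, and depth and arm cannot be told apart in these 6 libraries. Levels are given as CPM, which are read counts divided by library size, with TMM factors correcting for RNA composition. Bulk RNA cannot tell a change in the share of cells expressing a gene from a change in RNA per cell. The B-lineage markers CD79A, CD79B, PAX5, EBF1, VPREB1, IGLL1, CD22 and CD38 were all present, at 56.1 CPM or more in each of the 6 libraries. The libraries of an arm were not alike. On the first principal component of all genes tested, which held 44.3% of the variance, NT replicate 1 lay at -7.04, between NT replicates 2 and 3 at -47.3 and -46.5 and the sh2 libraries at 22.3 to 77.3. sh2 replicate 1 lay farthest from NT, at 77.3, and sh2 replicate 3 nearest, at 22.3. The sh5 libraries were split, with replicate 1 at 26.8 and replicates 2 and 3 at -27.1 and -30.8. The second component (18.2%) cut across arms. NT replicate 1, sh5 replicate 1 and sh2 replicate 3 lay at 38.4, 32.5 and 31.0 on it, and every other RCH library at -8.07 or below. In log2 CPM, NT replicate 1 correlated at 0.9844 with sh5 replicate 1 and 0.9837 with sh2 replicate 3. With NT replicates 2 and 3 it correlated at 0.9831 and 0.9786. The source of this axis was not tested. sh2 replicate 1 also held transcripts of stromal cells. COL3A1 measured 7.96 CPM, COL1A2 7.02 CPM and DCN 2.11 CPM in that library, where the other 8 RCH libraries reached at most 0.255, 0.523 and 0.0361 CPM. These are fibroblast genes, and the part of such cells in the results was not tested. Over the 17 matched stromal, endothelial and epithelial markers the sums were 114 to 187 CPM with NT and 140 to 189 CPM with sh2, mostly from PDGFRB, 0 of 7 tested were called by edgeR (1 higher and 0 lower at an unadjusted p under 0.05), and LUM and EPCAM were at or near 0 in every RCH library.

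NSD2, listed under its older symbol WHSC1, was lower in each sh2 library than in any NT library. The transcript stood at 327, 344 and 352 CPM in NT replicates 1 to 3 and at 142, 205 and 252 CPM in sh2 replicates 1 to 3, which lay 58.4%, 39.8% and 26.2% below the NT mean. In sh5 replicates 1 to 3 it lay 55.7%, 33.6% and 38.8% below the NT mean, so sh5 replicates 2 and 3, which lay on the NT side of the first component, had less NSD2 than sh2 replicate 3. The log2 fold change was -0.77 ± 0.21 (SE) and was not called at an adjusted p under 0.05 (adjusted p = 0.0952, edgeR quasi-likelihood test with Benjamini-Hochberg adjustment). An exact 2-sided permutation test of the 3 against 3 CPM values gave 0.1, the smallest p that this design allows. NSD2 passed without sh2 replicate 3 (-0.98, adjusted p = 0.0387), and adjusted p-values ran up to 0.282 without another library. Of 36 enzymes and readers of H3K36 and H3K27 methylation, NSD2 included, 0 passed in either direction with edgeR, 5 were higher and 5 lower at an unadjusted p under 0.05 (9.47% and 9.27% of all genes tested), and their median log2 fold change was 0.07. SETD2, the enzyme for trimethylation of H3K36, measured 78.4, 76.2 and 75.6 CPM with NT and 106, 99.8 and 104 CPM with sh2 (log2 fold change 0.43 ± 0.11, adjusted p = 0.0907).

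Across all genes, 239 of 17468 tested were called at an adjusted p under 0.05, which is 1.37%, and 3273 (18.7%) had an unadjusted p under 0.05. Of the 239 genes, 205 were higher with sh2 (1.17% of genes tested) and 34 were lower (0.195%). In all 205 and all 34 the NT and sh2 libraries did not overlap. A lack of overlap in a called gene is thus no further result. The changes were large. Among the higher genes, 180 rose at least 2-fold, 112 at least 4-fold and 60 at least 8-fold, with a median log2 fold change of 2.18. Many of them were close to silent with NT, since 79 had an NT mean under 1 CPM and 70 reached 5 CPM there. Among the lower genes, 29 fell at least 2-fold and 14 at least 4-fold, with a median of -1.82. The median over all genes tested was -0.02. sh2 replicate 1 was the library farthest from NT for 153 of the 205 higher and 27 of the 34 lower genes, and sh2 replicate 3 was the nearest for 147 and 22. Without sh2 replicate 1, the library with the stromal transcripts, 74 genes were called. The number of calls depended on single libraries. It was 15 without NT replicate 2 and 25 without NT replicate 3, but 260 without NT replicate 1. It was 43 without sh2 replicate 2 and 620 without sh2 replicate 3. Among the 54 called genes named in the text by rule, HMX2, CDC42EP1, NACC2, ZBTB46, UNC5D and COL8A2 remained called whichever library was left out.

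**Figure D1:**
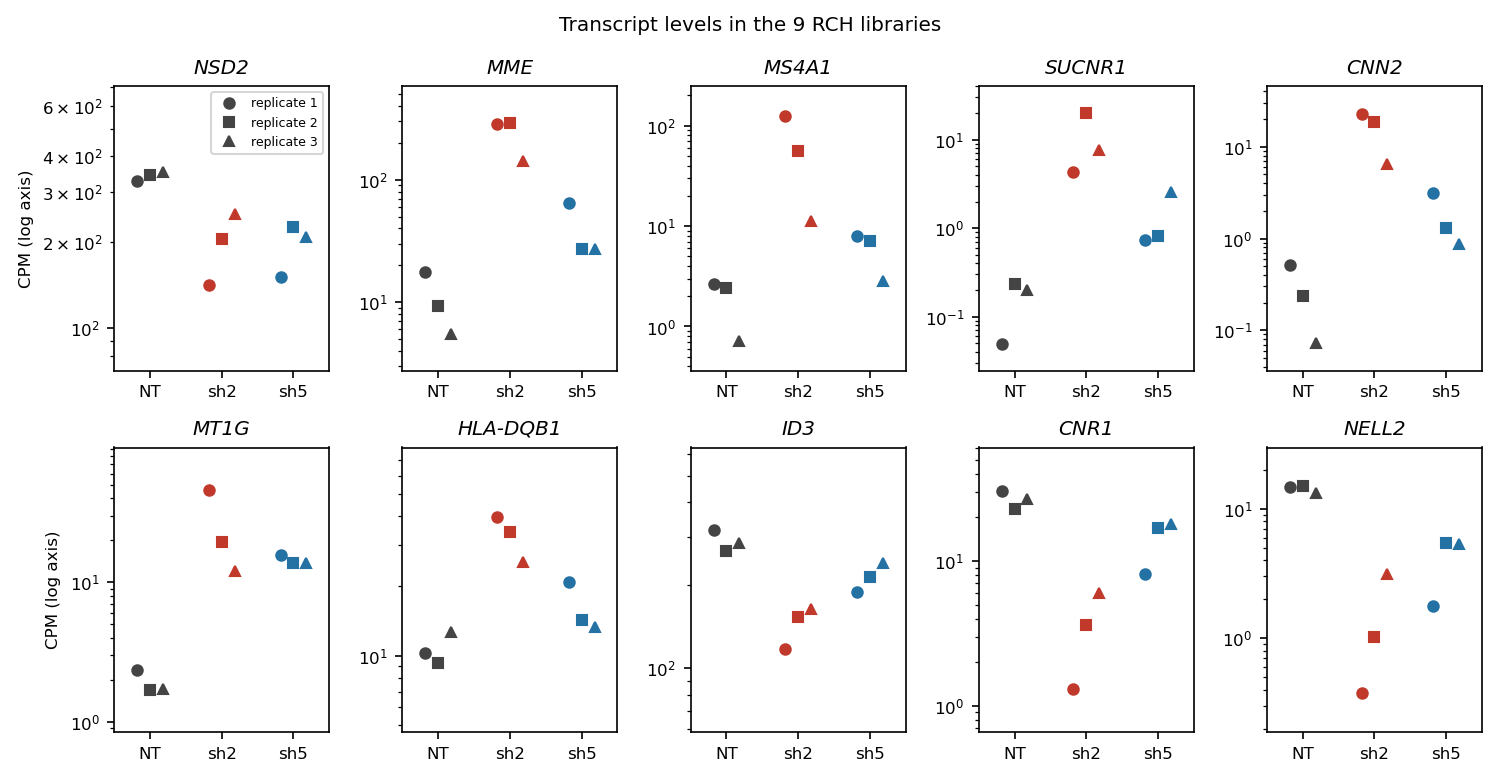
Levels of 10 genes in the 9 RCH libraries, in CPM on a log axis, by arm (NT grey, sh2 red, sh5 blue) and replicate (circle 1, square 2, triangle 3). NSD2, ID3, CNR1 and NELL2 were lower in each sh2 library than in any NT library, and the other 6 genes were higher.

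The 12 named genes with the largest increases had NT means from 0.161 CPM (SUCNR1) to 10.8 CPM (MME) and log2 fold changes from 3.74 to 6.05. SUCNR1, the cell-surface receptor for succinate, measured 0.0489, 0.236 and 0.199 CPM with NT and 4.35, 20.1 and 7.72 CPM with sh2. All 3 sh2 libraries lay above all 3 NT libraries, as the rule for naming these 12 genes required. The highest value was in sh2 replicate 2 (log2 fold change 6.05 ± 0.82, adjusted p = 0.0105). CNN2, an actin-binding calponin, went from 0.514, 0.236 and 0.0722 CPM to 22.9, 18.4 and 6.56 CPM (5.89 ± 0.77, adjusted p = 0.0105). CDC42EP1, an effector of the small GTPase CDC42, measured 0.0734, 0.303 and 0.199 CPM with NT and 6.51, 6.21 and 2.73 CPM with sh2. For both genes the sh2 libraries ran in the same order, replicate 1 highest and replicate 3 lowest. B3GNT7, a glycosyltransferase that extends sugar chains, rose from 0.0979, 0.169 and 0.307 CPM to 5.62, 6.38 and 3.13 CPM (4.64 ± 0.57, adjusted p = 0.00691). NACC2, a transcriptional repressor with a BTB domain, rose from 0.367, 0.101 and 0.199 CPM to 7.39, 7.77 and 3.13 CPM (4.72 ± 0.50, adjusted p = 0.00516). ZBTB46, a zinc-finger factor known from dendritic cells, rose from 0.783, 0.438 and 1.23 CPM to 13.2, 13.7 and 6.78 CPM (3.74 ± 0.44, adjusted p = 0.00624). RGS1, which shortens signalling by G-protein-coupled receptors in B cells, rose from 1.71, 0.809 and 0.668 CPM to 33.0, 10.6 and 5.06 CPM (3.92 ± 0.73, adjusted p = 0.0370). Of the 12 genes with the largest increases, 4 kept their call without NT replicate 2, 9 without NT replicate 3 and 10 without NT replicate 1, sh2 replicate 1 or sh2 replicate 2, and the smallest log2 fold change any of them took was 2.89, in RGS1.

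HMX2 and HMX3, neighbouring homeobox genes, rose together. HMX2, a developmental transcription factor, measured 0.930, 0.505 and 0.758 CPM with NT and 29.9, 23.1 and 8.42 CPM with sh2 (log2 fold change 4.78 ± 0.48, adjusted p = 0.00516). HMX3 measured 0.245, 0.202 and 0.217 CPM with NT and 2.57, 2.38 and 1.17 CPM with sh2 (3.17 ± 0.40, adjusted p = 0.00709). Neither gene overlapped between arms, as held for every called gene, and sh2 replicate 3 was the lowest of its arm for both. HMX3 was looked up because it neighbours HMX2, after its value had been seen. Among the 216 called genes that could be placed in RefSeq gene order, 15 pairs were direct neighbours, of which 14 had both genes higher and 1 (KCNMA1 and DLG5) had opposite directions. Since 205 of the 239 called genes were higher, most pairs of called genes have both higher whatever their place, and how often called genes neighbour each other was not tested. Several pairs are gene copies or antisense partners whose reads may be confused. The pairs with both genes higher included IGSF10, SUCNR1 and MBNL1 in a row, CNN2 beside ABCA7, FXYD2 beside IL10RA, and the metallothionein and class II groups described next. WDR86 also rose beside its antisense transcript WDR86-AS1. No source used here gives the strand setting of the read counting, so reads of these antisense partners cannot be told apart.

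Metallothioneins are small cysteine-rich proteins that bind zinc and copper, and their genes lie in a cluster. MT1G measured 2.37, 1.69 and 1.73 CPM with NT and 46.1, 19.4 and 12.1 CPM with sh2 (log2 fold change 3.74 ± 0.44, adjusted p = 0.00691). MT1H measured 0.905, 0.943 and 1.34 CPM with NT and 44.6, 18.01 and 8.16 CPM with sh2 (4.45 ± 0.55, adjusted p = 0.00728). For both genes every sh2 library lay far above NT, with replicate 1 highest and replicate 3 lowest. MT1F, next in the cluster, rose from 1.59, 1.21 and 0.974 CPM to 7.67, 4.68 and 3.57 CPM (2.07 ± 0.34, adjusted p = 0.0183). MT2A measured 3.92, 2.46 and 3.52 CPM with NT and 12.7, 6.03 and 4.59 CPM with sh2 (1.23 ± 0.35, adjusted p = 0.113). MT1X, the most abundant of these with NT, measured 51.3, 37.4 and 46.7 CPM with NT and 51.2, 45.0 and 43.9 CPM with sh2, so that the arms overlapped (0.05 ± 0.16, adjusted p = 0.895). MT1F, MT2A and MT1X were added after their values had been seen. The coding sequences of this family are close to identical, so reads may have been assigned to the wrong member. Without NT replicate 2 none of the 3 called genes passed (adjusted p = 0.0581 for MT1G, 0.0780 for MT1H and 0.109 for MT1F). Without NT replicate 3 or sh2 replicate 2, MT1F alone lost its call.

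Promoter windows were printed for the metallothioneins found in the RefSeq promoter table (GRCh38.p14), 3 of 5 looked up, since metallothionein promoters are known for this motif. The window is the 250 bases before the gene start, 5′ to 3′ on the gene's strand, and capitals mark the core of the metal response element, TGCACNC or TGCGCNC on either strand, with overlapping matches counted separately.
MT1H, plus strand, chr16:56669564-56669813: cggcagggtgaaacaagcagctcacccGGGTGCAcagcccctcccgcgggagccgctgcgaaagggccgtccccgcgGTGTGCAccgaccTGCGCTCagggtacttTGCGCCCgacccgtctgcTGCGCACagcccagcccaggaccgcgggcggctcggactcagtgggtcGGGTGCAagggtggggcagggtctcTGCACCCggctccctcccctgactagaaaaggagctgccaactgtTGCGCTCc
MT2A, plus strand, chr16:56608334-56608583: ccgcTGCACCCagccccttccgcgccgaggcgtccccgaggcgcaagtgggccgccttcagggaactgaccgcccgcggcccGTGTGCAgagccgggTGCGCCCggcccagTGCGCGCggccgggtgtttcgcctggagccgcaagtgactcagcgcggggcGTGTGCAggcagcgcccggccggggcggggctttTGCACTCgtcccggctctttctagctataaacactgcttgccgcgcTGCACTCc
MT1X, plus strand, chr16:56682220-56682469: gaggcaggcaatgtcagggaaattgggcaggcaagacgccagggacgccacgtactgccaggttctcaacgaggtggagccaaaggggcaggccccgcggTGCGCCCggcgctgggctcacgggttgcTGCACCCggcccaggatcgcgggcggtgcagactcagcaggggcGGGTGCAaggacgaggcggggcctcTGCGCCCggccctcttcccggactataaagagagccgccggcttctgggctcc
The window of MT1H held 8 matches, that of MT2A 7 and that of MT1X 4. Of 35116 windows of this length in the table, 24.8% held at least 1 match and 0.37% at least 4.

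Class II molecules, which present peptides to helper T cells, had the largest share of calls among the 41 gene lists examined. Of 15 members tested, 7 were called higher and 0 lower, against 1.17% higher over all genes, and the median log2 fold change was 0.79 against -0.02. In all 15 members every sh2 library lay above every NT library, which held for 13% of all genes tested. HLA-DQB1 measured 10.3, 9.33 and 12.6 CPM with NT and 39.6, 34.1 and 25.3 CPM with sh2 (1.62 ± 0.23, adjusted p = 0.0105). HLA-DQA1 measured 45.5, 39.6 and 42.7 CPM with NT and 133, 113 and 91.8 CPM with sh2 (1.40 ± 0.20, adjusted p = 0.0105). HLA-DRB1 measured 101, 110 and 127 CPM with NT and 248, 210 and 176 CPM with sh2 (0.91 ± 0.17, adjusted p = 0.0320). The order of the sh2 libraries was the same in these 3 genes, with replicate 1 highest. HLA-DMA and HLA-DMB, which load peptides onto class II molecules, rose by log2 fold changes of 0.68 ± 0.13 and 0.79 ± 0.15 (adjusted p = 0.0372 and 0.0364). CTSS, a protease that cuts the invariant chain, rose from 38.9, 30.5 and 25.8 CPM to 74.6, 55.4 and 51.9 CPM (adjusted p = 0.0481), and HLA-DRB5 was the seventh gene called.

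The most abundant class II transcripts were not called. HLA-DRA measured 1254, 1114 and 1005 CPM with NT and 1677, 1606 and 1564 CPM with sh2 (log2 fold change 0.52 ± 0.15, adjusted p = 0.118). CD74, the invariant chain, measured 1091, 1170 and 1174 CPM with NT and 1541, 1404 and 1283 CPM with sh2 (0.30 ± 0.12, adjusted p = 0.215). The arms overlapped for neither gene. The summed level of the 15 genes was 3173 to 3355 CPM with NT and 4360 to 5021 CPM with sh2. HLA-DQA2 and HLA-DQB2, which were not on the list and were seen among the called genes, rose by 1.30 ± 0.20 and 1.78 ± 0.31. The DR and DQ genes have near-identical copies, so how the reads were divided within DRB1 and DRB5, DQA1 and DQA2, or DQB1 and DQB2 is uncertain. The count of 7 fell to 3 without NT replicate 1, 0 without NT replicate 2 and 1 without NT replicate 3. It fell to 2 without sh2 replicate 1 and 2 without sh2 replicate 2, and was 7 without sh2 replicate 3. The count was 11 with DESeq2.

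Promoters of class II genes were printed because these genes rose together and class II promoters share a conserved module. Of 14 genes looked up, 13 had a window in the RefSeq table (GRCh38.p14). The 150 bases before the gene start are given 5′ to 3′ on the gene's strand. Capitals mark matches on either strand to GATTGG, the core letters of the Y box of that module. Place and spacing within the module were not checked, so a match need not be the Y box itself.
HLA-DQB1, minus strand, chr6:32666658-32666807: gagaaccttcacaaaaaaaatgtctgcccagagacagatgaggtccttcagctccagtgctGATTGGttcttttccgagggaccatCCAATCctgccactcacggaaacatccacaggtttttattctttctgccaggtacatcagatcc
HLA-DRB1, minus strand, chr6:32589849-32589998: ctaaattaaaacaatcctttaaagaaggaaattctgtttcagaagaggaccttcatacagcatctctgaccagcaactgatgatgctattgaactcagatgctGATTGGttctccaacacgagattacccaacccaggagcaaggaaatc
HLA-DMA, minus strand, chr6:32953098-32953247: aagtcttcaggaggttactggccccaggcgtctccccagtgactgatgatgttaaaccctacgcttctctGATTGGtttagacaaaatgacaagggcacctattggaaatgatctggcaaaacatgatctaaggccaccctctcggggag
The HLA-DQB1 window held 2 matches and the others 1 each. A match was found for 10 of the 13 genes, and in 10.7% of the 35116 windows of this length. HLA-DQA1, HLA-DPA1 and CD74 had no match to these letters in this window.

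**Figure D2:**
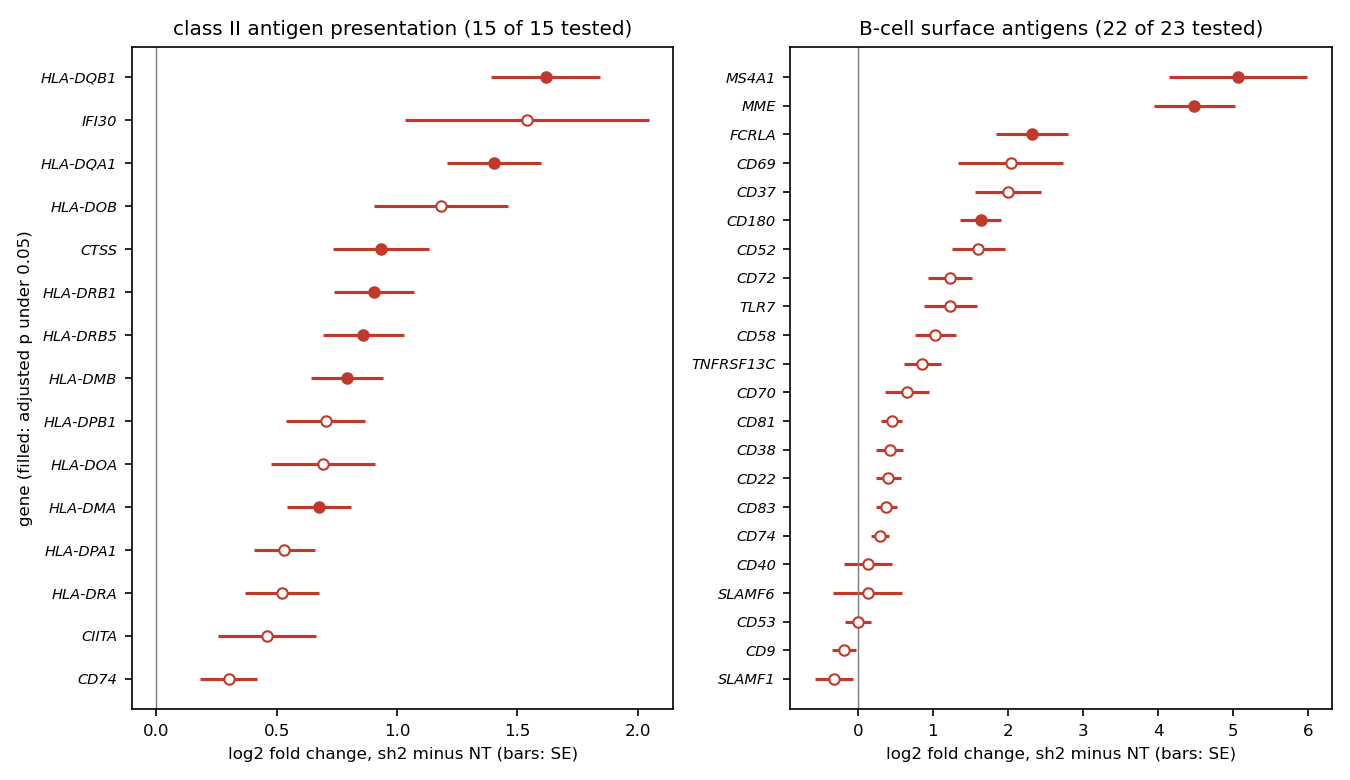
Log2 fold change of sh2 against NT with its SE for the class II genes (left) and 22 of the 23 B-cell surface antigens tested (right), filled where the adjusted p was under 0.05. All 15 class II genes lay above 0 and 7 were called, and MS4A1 and MME stood apart among the surface antigens.

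B-cell surface antigens held the 2 largest log2 fold changes of any listed gene, those of MS4A1 and MME. Of 23 tested, 4 were called higher and 0 lower, against 1.17% and 0.195% of all genes tested. Of the 23, 20 had a positive log2 fold change, and the median was 0.66. MME, the gene of CD10, a peptidase that marks early B-lineage cells, measured 17.6, 9.30 and 5.49 CPM with NT and 286, 292 and 143 CPM with sh2. The lowest sh2 library was thus far above the highest NT library (4.48 ± 0.54, adjusted p = 0.00728). MS4A1, the gene of CD20, measured 2.67, 2.43 and 0.722 CPM with NT and 124, 55.7 and 11.2 CPM with sh2 (5.07 ± 0.92, adjusted p = 0.0395). The spread within sh2 was wide, with replicate 1 highest and replicate 3 lowest. CD180, a Toll-like receptor homologue of B cells, rose from 1.84, 1.72 and 1.75 CPM to 5.94, 6.17 and 4.41 CPM (1.64 ± 0.27, adjusted p = 0.0187). FCRLA, an Fc receptor-like protein inside B cells, rose from 5.19, 3.54 and 2.53 CPM to 28.7, 19.6 and 7.94 CPM (2.32 ± 0.48, adjusted p = 0.0483). CD37, CD52 and CD72 were higher in every sh2 library without passing (adjusted p = 0.0543, 0.0568 and 0.0719). The number called was 2 of the 4 without NT replicate 1 and 1 without NT replicate 3, sh2 replicate 1 or sh2 replicate 2. It was 0 of the 4 without NT replicate 2, where MS4A1 had an adjusted p of 0.157.

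Of the genes of B-cell development, 6.67% of 30 lineage transcription factors and 4% of 25 pre-B receptor and V(D)J recombination genes were called. The share over all genes tested was 1.37%. Of the 30 lineage transcription factors, 1 rose (IKZF2) and 1 fell (ID3), 19 were positive, and the median log2 fold change was 0.11. At an unadjusted p under 0.05, 10 were higher and 1 lower, against 9.47% and 9.27% of all genes tested. ID3, an inhibitor of E proteins, measured 317, 267 and 285 CPM with NT and 117, 154 and 165 CPM with sh2 (-0.995 ± 0.156, adjusted p = 0.0158). IKZF2, the Ikaros family member Helios, measured 5.85, 2.66 and 1.62 CPM with NT and 44.4, 39.1 and 14.7 CPM with sh2 (3.28 ± 0.67, adjusted p = 0.0481). The arms did not overlap for either gene, as held for every called gene. FOXO1, which drives RAG expression, measured 74.9, 78.4 and 66.8 CPM with NT and 148, 139 and 112 CPM with sh2 (0.86 ± 0.19, adjusted p = 0.0568). Among 25 genes of the pre-B receptor and V(D)J recombination, BANK1, an adaptor of B-cell receptor signalling, was the 1 called, while 21 of the 25 were positive. It rose from 0.196, 0.169 and 0.271 CPM to 4.31, 1.95 and 0.765 CPM (3.40 ± 0.60, adjusted p = 0.0261). RAG1, the recombinase, measured 3042, 1601 and 1525 CPM with NT and 2729, 2682 and 3763 CPM with sh2, and NT replicate 1 lay within the range of sh2 (0.57 ± 0.29, adjusted p = 0.312). Without NT replicate 2 or 3, or sh2 replicate 1 or 2, neither ID3 nor IKZF2 passed (adjusted p up to 0.0929 and 0.206), and without NT replicate 1 ID3 alone did. BANK1 passed without NT replicate 1 or sh2 replicate 3 and with no other library left out (adjusted p up to 0.135).

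Single genes known from T cells, from progenitors and from leukocytes in general were among those that rose. In the stem and progenitor list 2 of 18 were called higher, against 1.17% of all genes tested. Of its 18 genes 10 were positive and 8 negative, with a median log2 fold change of 0.07. In the WNT and NOTCH list, which holds TCF7, 1 of 40 was called higher and 1 lower. There 13 were positive and 27 negative, with a median of -0.18. TCF7, the T-cell factor of WNT signalling, measured 0.0489, 0.135 and 0.144 CPM with NT and 3.23, 1.81 and 1.13 CPM with sh2 (4.17 ± 0.64, adjusted p = 0.0146). TAL1, a stem-cell factor silent in B cells, measured 1.35, 0.943 and 2.31 CPM with NT and 25.2, 10.5 and 12.9 CPM with sh2 (3.37 ± 0.64, adjusted p = 0.0372). PTPRC, the leukocyte phosphatase CD45, rose from 0.294, 0.169 and 0.235 CPM to 3.09, 3.30 and 1.49 CPM (3.46 ± 0.48, adjusted p = 0.0105). FLT3, a growth-factor receptor of progenitors, rose from 5.43, 7.21 and 6.14 CPM to 19.2, 16.5 and 12.8 CPM (1.37 ± 0.20, adjusted p = 0.0114). These 4 genes, like every called gene, had no overlap between arms. None of the 4 passed without NT replicate 2 or NT replicate 3 (adjusted p from 0.0581 to 0.174), TAL1 also failed without NT replicate 1, sh2 replicate 1 or sh2 replicate 2, and TCF7 and FLT3 without sh2 replicate 2. Of the 10 tested marker genes of T and NK cells 0 were called by edgeR, with 5 higher at an unadjusted p under 0.05. Their list summed to 220 to 280 CPM with NT and 265 to 552 CPM with sh2, mostly from TRAC, ZAP70 and LCK. CD2, CD3D and CD3E, which define T cells, had no read in any of the 9 RCH libraries. CD4 and CD5 had the largest log2 fold changes of the list, 3.84 and 3.77, and were not called. The part of such cells in the results was not tested. Markers of myeloid cells summed to 26.0 to 32.2 CPM with NT and 17.2 to 25.7 CPM with sh2, and 0 of 7 were called by edgeR (2 higher and 1 lower at an unadjusted p under 0.05).

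Interferon-stimulated genes leaned upward, with 3 of 38 called higher, 0 lower, 34 positive and a median log2 fold change of 0.56. Over all genes tested 1.17% were called higher. USP18, which restrains interferon signalling, rose from 0.612, 0.573 and 0.812 CPM to 5.94, 3.79 and 1.60 CPM (2.48 ± 0.44, adjusted p = 0.0261). IFI44 rose from 1.59, 1.42 and 1.17 CPM to 11.0, 5.39 and 3.57 CPM (2.26 ± 0.39, adjusted p = 0.0238), and EPSTI1 by 2.25 ± 0.47 (adjusted p = 0.0456). In each of the 3 genes sh2 replicate 1 was highest and replicate 3 lowest. The summed level of the list was 933 to 1183 CPM with NT and 1198 to 1568 CPM with sh2. Without NT replicate 2 or 3, or sh2 replicate 2, 0 of the 3 passed, and without sh2 replicate 1 1 of them did. In the NF-kB list BIRC3, an inhibitor of cell death, was the 1 of 25 called, a share of 4% against 1.37% of all genes tested. It measured 6.58, 3.88 and 4.01 CPM with NT and 29.2, 15.6 and 18.7 CPM with sh2 (2.13 ± 0.40, adjusted p = 0.0370). BIK, a pro-apoptotic BCL2 family member, rose by 1.30 ± 0.24 (adjusted p = 0.0352). Neither gene passed without NT replicate 2 or 3, or sh2 replicate 1 or 2 (adjusted p up to 0.168). The integrated stress response had 0 of 26 called by edgeR and 6 higher at an unadjusted p under 0.05, with a median of 0.56. DDIT3, its effector CHOP, measured 9.004, 10.3 and 13.4 CPM with NT and 25.7, 80.3 and 44.8 CPM with sh2 (2.21 ± 0.80, adjusted p = 0.199).

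Growth and division genes lay mostly on the low side, and none was called by edgeR. Over all genes tested 0.195% were called lower, so 0 calls in lists of 40 genes says little. At an unadjusted p under 0.05, 9.27% of all genes tested were lower and 9.47% higher. Of 40 genes of MYC and ribosome biogenesis 0 were called by edgeR, 13 were lower and 1 higher at an unadjusted p under 0.05, 35 had a negative log2 fold change, and the median was -0.52. MYC itself measured 616, 688 and 653 CPM with NT and 355, 398 and 454 CPM with sh2 (-0.70 ± 0.16, adjusted p = 0.0608). The list summed to 5652, 8063 and 7559 CPM in NT replicates 1 to 3 and to 5117, 5466 and 4924 CPM in sh2. NT replicate 1, the library that stood apart from the other NT libraries, was thus close to the sh2 libraries. Of 40 genes of the G2 and M phases 38 were negative (median -0.19), and of 40 S phase genes 35 were (median -0.18), with 0 called in both lists by edgeR and 9 and 6 lower at an unadjusted p under 0.05.

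**Figure D3:**
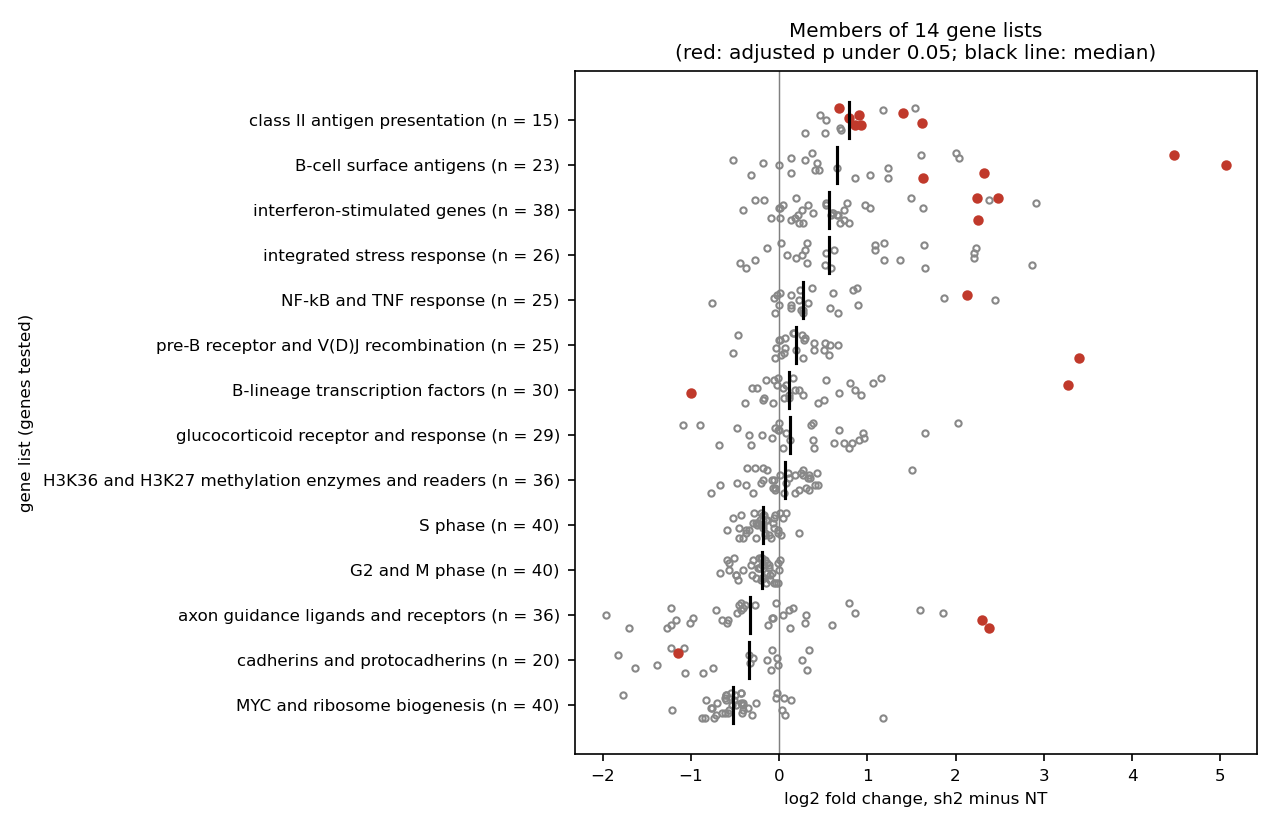
Log2 fold change of sh2 against NT for the tested members of 14 lists. Each circle is a gene, red where the adjusted p was under 0.05, and the black line is the median, which ran from -0.52 for MYC and ribosome biogenesis to 0.79 for class II antigen presentation. The list of T and NK cell markers, with a median of 0.97, is not among the 14.

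The 12 named genes that fell most had log2 fold changes from -3.22 to -1.23. NELL2, a secreted glycoprotein, measured 14.9, 14.9 and 13.1 CPM with NT and 0.374, 1.03 and 3.13 CPM with sh2 (-3.22 ± 0.63, adjusted p = 0.0407). CNR1, a cannabinoid receptor, measured 30.4, 22.9 and 26.9 CPM with NT and 1.31, 3.62 and 6.01 CPM with sh2 (-2.86 ± 0.47, adjusted p = 0.0218). DPYSL3, a microtubule-binding protein of growing neurites, measured 18.5, 22.7 and 23.0 CPM with NT and 1.36, 2.87 and 4.55 CPM with sh2 (-2.86 ± 0.43, adjusted p = 0.0150). In all 3 genes sh2 replicate 1 was lowest and replicate 3 highest. SPRY4, a feedback inhibitor of receptor tyrosine kinase signalling, measured 5.43, 9.60 and 9.73 CPM with NT and 1.87, 1.49 and 1.13 CPM with sh2 (-2.47 ± 0.50, adjusted p = 0.0433). ETV4, an ETS factor induced by the same signalling, measured 4.53, 6.47 and 6.66 CPM with NT and 1.87, 1.67 and 1.24 CPM with sh2 (-1.89 ± 0.30, adjusted p = 0.0160). These 2 genes ran in the opposite order, with sh2 replicate 3 lowest. They were the 2 of 34 tested genes of MAPK feedback and immediate early response that were called, both lower. Over all genes tested 0.195% were called lower. Of the 34 genes, 20 had a positive and 14 a negative log2 fold change, and the median was 0.09. At an unadjusted p under 0.05, 5 were higher and 5 lower, so the list as a whole did not lean downward.

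Adhesion genes were mixed. PTPRM, a receptor phosphatase of cell contacts, measured 7.73, 6.47 and 5.09 CPM with NT and 0.468, 1.28 and 2.26 CPM with sh2 (-2.25 ± 0.43, adjusted p = 0.0372). DCHS1, a large protocadherin, was the 1 of 20 cadherins called, a share of 5% against 1.37% of all genes tested. It measured 51.0, 48.5 and 59.8 CPM with NT and 19.5, 24.1 and 28.7 CPM with sh2 (-1.14 ± 0.18, adjusted p = 0.0158). Of the 20 cadherins 17 were negative. FZD3, a WNT receptor, fell from 57.0, 42.0 and 45.5 CPM to 18.8, 19.1 and 32.0 CPM (-1.05 ± 0.21, adjusted p = 0.0423). Against this, the netrin receptor UNC5D rose from 22.4, 14.5 and 17.5 CPM to 100, 90.1 and 77.4 CPM (2.30 ± 0.26, adjusted p = 0.00591). COL8A2, a short-chain collagen, rose from 5.82, 5.59 and 7.92 CPM to 48.6, 32.0 and 26.5 CPM (2.46 ± 0.25, adjusted p = 0.00516). MMP14, a membrane-bound protease of the matrix, rose by 1.08 ± 0.13 (adjusted p = 0.00709). Of the 12 genes that fell most, 0 kept their call without NT replicate 2, NT replicate 3 or sh2 replicate 2, 3 without sh2 replicate 1, 7 without NT replicate 1 and 11 without sh2 replicate 3. Their adjusted p-values then ran up to 0.189, in FJX1. DCHS1 and FZD3 likewise failed without NT replicate 2 or 3, or sh2 replicate 1 or 2 (adjusted p up to 0.179), and FZD3 and MMP14 failed without NT replicate 1 and NT replicate 2, respectively.

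Lists of drug response, DNA repair and p53 targets held 0 or 1 call each, against 1.37% of all genes tested. In the list for thiopurine, cytarabine and antifolate handling 0 of 33 were called by edgeR, with 2 higher and 4 lower at an unadjusted p under 0.05. In the glucocorticoid list 0 of 29 were called, with 12 higher and 3 lower at an unadjusted p under 0.05, against 9.47% and 9.27% of all genes. NR3C1, the glucocorticoid receptor, measured 222, 218 and 211 CPM with NT and 357, 332 and 398 CPM with sh2 (0.74 ± 0.17, adjusted p = 0.0608), and the arms did not overlap. LIG4, a DNA ligase of end joining, was the 1 of 31 mismatch repair and damage genes called, at 26.1, 32.8 and 19.5 CPM with NT and 78.3, 56.1 and 44.6 CPM with sh2 (1.19 ± 0.23, adjusted p = 0.0364). ABCA7, a lipid transporter, was the 1 of 18 ABC transporters called (1.34 ± 0.24, adjusted p = 0.0267). ZMAT3, a p53 target, was the 1 of 31 p53 targets called (1.00 ± 0.21, adjusted p = 0.0471). None of these 3 genes passed without NT replicate 2 or 3, or sh2 replicate 1 or 2, and LIG4 also failed without NT replicate 1 (adjusted p = 0.0503).

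The sh5 arm was compared with the same NT libraries. NSD2 stood at 151, 227 and 209 CPM with sh5, and its direct estimate of sh2 against sh5 was 0.03 on the log2 scale (95% interval -0.42 to 0.48). Against NT 4 genes passed (0.0229% of those tested) in these 3 libraries, which were split on the first component as given above, namely COL8A2, ABHD12B, RNF144B and TNFRSF25. For SUCNR1 the log2 fold change against NT was 6.05 with sh2 and 3.08 with sh5, for MME 4.48 and 1.89, for MT1G 3.74 and 2.89, for NELL2 -3.22 and -1.78, and for HLA-DQB1 1.62 and 0.59. Tested directly, sh2 and sh5 differed in 0 of 17468 genes (0%) by edgeR, with 1714 (9.81%) at an unadjusted p under 0.05, and in 197 genes by DESeq2. Without sh5 replicate 1 edgeR called 32 genes, and without sh5 replicate 2 it called 1. The direct edgeR estimate for MME was 2.59 on the log2 scale (95% interval 1.49 to 3.70, adjusted p = 0.206). That for COL8A2 was 0.26 (95% interval -0.25 to 0.77, adjusted p = 0.677). The intervals are not adjusted for the number of genes tested. The genes compared here were picked for their change with sh2, a choice that favours larger values with sh2 than with sh5. The fold changes against NT and the direct estimates share libraries, so they are given side by side and not as independent results.

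**Figure D4:**
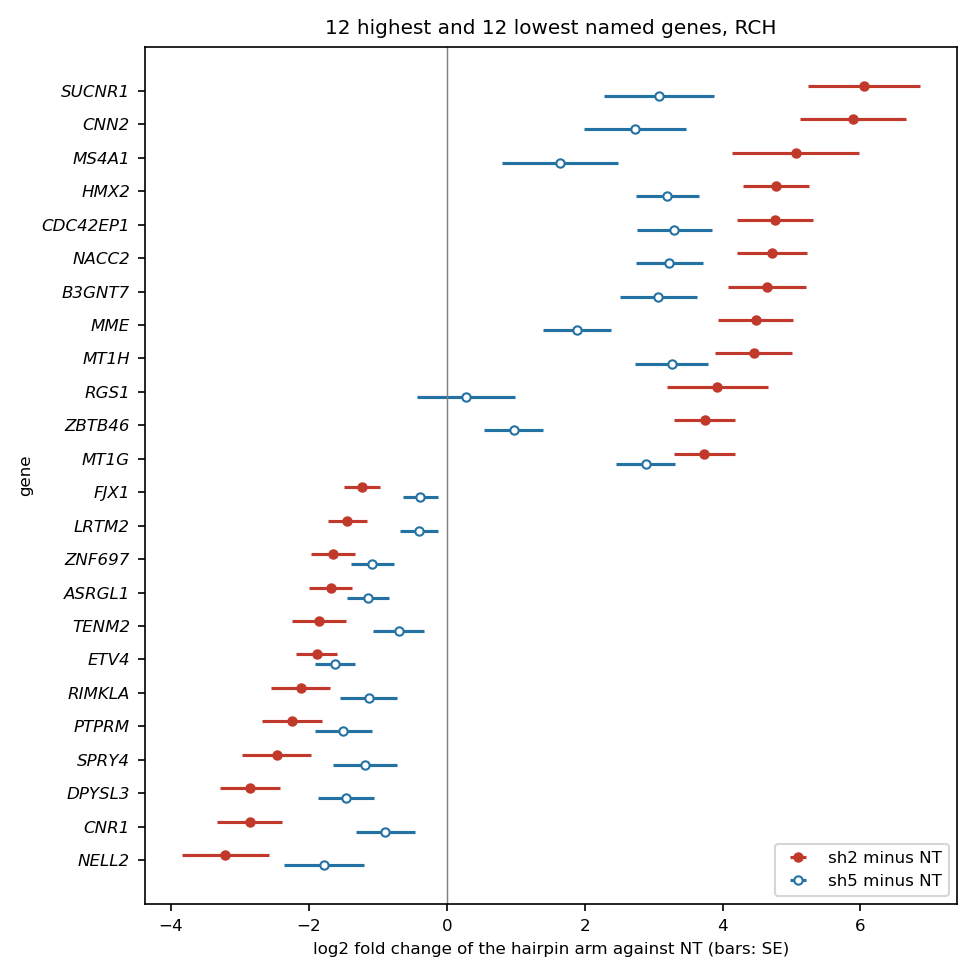
Log2 fold change against NT with its SE for the 12 highest and 12 lowest named genes of the sh2 comparison, with sh2 in filled red and sh5 in open blue. The 2 sets share the NT libraries, and the genes were picked for their change with sh2. For SUCNR1 the values were 6.05 with sh2 and 3.08 with sh5, and for RGS1 3.92 and 0.28.

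The response of RCH to sh2 was compared with that of RS411 and SEM, both lines with an MLL rearrangement, in 1 fit of 18 libraries, which tests the difference between RCH and the mean of the other lines. That fit shares 1 estimate of the spread over 3 lines. RCH had 3006 of 19573 genes called in it (15.4%), RS411 217 (1.11%) and SEM 2100 (10.7%). In the fit of RCH alone the same contrast called 239 of 17468 genes (1.37%). The counts per line thus depend on the fit and do not rank the responses. The SE of single genes in RCH moved both ways, from 0.50 to 0.22 for SPRY4 and from 0.21 to 0.30 for FZD3. The difference was called for 1877 genes (9.59%), with 1013 higher (5.18%) and 864 lower (4.41%) in RCH. The count was 934 without NT replicate 3, 939 without NT replicate 2 and 4275 without NT replicate 1 of RCH. Of the 238 genes called in RCH on its own and tested here, 142 passed this test, but they had been picked for their change in RCH. NSD2 itself did not differ between lines beyond its error (0.12 ± 0.22, adjusted p = 0.806). MME rose in RCH while its log2 fold change was -0.48 ± 0.45 in RS411 and -2.49 ± 1.19 in SEM (difference 5.98 ± 0.72, adjusted p = 0.000224). Its NT means in RS411 and SEM were only 2.57 and 0.379 CPM, and neither change passed (adjusted p = 0.726 and 0.235). B3GNT7 was at -1.18 ± 0.38 and -0.54 ± 0.55 in the other lines (difference 5.52 ± 0.51, adjusted p = 1.9e-05). Its NT means there were 0.735 and 0.175 CPM, levels that rest on few reads. CNN2, barely detected in RCH with NT, had NT means of 25.4 CPM in RS411 and 71.9 CPM in SEM, and its log2 fold changes there were 0.93 ± 0.34 and 0.41 ± 0.33 (difference 5.28 ± 0.59, adjusted p = 0.000143). KCNMA1, a potassium channel, rose in RCH (2.08 ± 0.32) and fell in SEM (-1.52 ± 0.27, adjusted p = 0.000712). It was at -1.32 ± 0.34 in RS411 without passing (adjusted p = 0.0661), and the difference was 3.51 ± 0.39 (adjusted p = 4.4e-05).

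For some genes the log2 fold change had the same sign in all 3 lines. NELL2 had log2 fold changes of -1.33 ± 0.44 in RS411 and -5.21 ± 0.58 in SEM, and DPYSL3 of -1.71 ± 0.43 and -1.95 ± 0.25. Both passed in SEM (adjusted p = 2.9e-05 and 5.8e-05) and neither in RS411 (0.185 and 0.0686). FZD3 was at -1.04 ± 0.30 and -0.93 ± 0.29 and passed in neither (adjusted p = 0.124 and 0.0530). For these 3 genes the difference between RCH and the mean of the other lines did not pass (adjusted p = 0.958, 0.120 and 0.9999). For NELL2 that mean joins unlike values, and RCH (-3.155 ± 0.517 in this fit) lay between RS411 and SEM. The test thus does not show that the lines responded alike. PTPRC rose in SEM as well (2.32 ± 0.17, adjusted p = 1.2e-07), from a mean of 30.6 to 152 CPM, whereas RS411 already stood at 437 CPM with NT. In the class II list 11 of 15 genes were called higher in SEM and 0 in RS411, with medians of 0.54 and 0.03, and 15 were called in RCH within this fit. The difference was called higher in RCH for 9 of the 15. In the list of MYC and ribosome biogenesis the median was -0.48 in RCH, -0.02 in RS411 and 0.15 in SEM, and 10 of 40 genes were called lower in RCH than in the other lines and 0 higher. CABLES1, a cell-cycle regulator, rose in RS411 (2.73 ± 0.23) and SEM (1.96 ± 0.22) and measured 18.8, 19.6 and 21.6 CPM with NT and 14.3, 15.4 and 17.6 CPM with sh2 in RCH (difference -2.64 ± 0.26, adjusted p = 2.1e-05). SLC9A3R2, a scaffold protein of ion exchangers, rose in RS411 (2.91 ± 0.34) and SEM (2.83 ± 0.36), against a log2 fold change of 0.34 ± 0.19 in RCH that did not pass (adjusted p = 0.351).

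**Figure D5:**
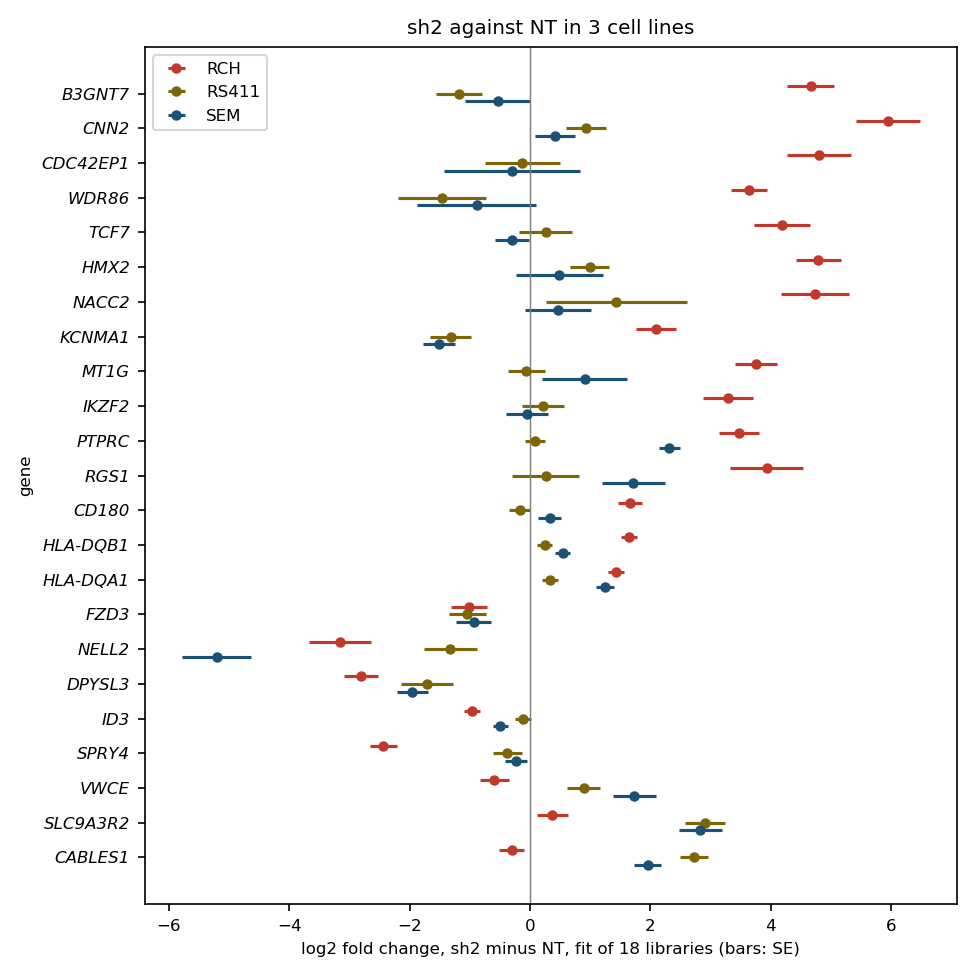
Log2 fold change of sh2 against NT with its SE in RCH (red), RS411 (brown) and SEM (blue) for 23 named genes, from the fit of 18 libraries. B3GNT7, CNN2 and TCF7 lay far to the right in RCH alone, FZD3 lay close together in the 3 lines, and CABLES1 and SLC9A3R2 lay near 0 in RCH and above it in the others.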

How the data were processed

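The data were RNA-seq read counts of 9 RCH libraries (NT, sh2 and sh5) and of the NT and sh2 libraries of RS411 and SEM. The deposited tables hold raw counts per gene for each library, which the authors made with Trimmomatic, STAR and featureCounts on hg19, per the submitters' processing notes. No source used here gives versions or the strand setting. Symbols turned into dates by a spreadsheet (27, with 0.222% to 0.297% of reads) were left out. Counts were tested with edgeR 4.0.16 (R 4.3.3, limma 3.58.1) by the quasi-likelihood test with TMM factors, filtering by expression within arms and a robust spread shared by all 9 libraries. P-values were adjusted by Benjamini-Hochberg over all genes tested, and genes under 0.05 were called. SE is the log2 fold change divided by the root of F. Alternatives were DESeq2 1.42.0, other scalings and filters, only the 2 arms, a replicate block and each library left out. Named genes were NSD2, the 12 highest and 12 lowest called genes with at least 5 CPM in the higher arm and no overlap, leaving out pseudogenes, small, antisense and uncharacterised RNAs, up to 3 called members per list, and the 5 highest and 5 lowest between lines and between sh2 and sh5. Other list members served as examples. The comparison, its members and the 41 gene lists were chosen with earlier results of these data known. The method was tested on simulated data. Some genes are not reported here, though counts over lists and over all genes include them.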

Additional observations from a re-analysis of the deposited data

Results flagged for a closer look

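For 38 of the 57 genes named by rule and reported here, the log2 response to sh2 in RCH differed from the mean response of RS411 and SEM by edgeR's test of that difference (adjusted p under 0.05, 18 libraries). The RCH genes had been picked for their change in RCH, so the direction of the difference is not independent of that choice. The values below are the response in RCH minus that mean, on the log2 scale. Several of the genes were close to silent in RS411 or SEM, where a log2 fold change rests on few reads. NT means in RS411 and SEM were 0.0841 and 0.0358 CPM for WDR86, and 0.13 and 0.0933 CPM for UNC5D. Others were well expressed there, such as FLT3 at 370 and 2415 CPM.

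Among the genes with the largest increases in RCH, the difference was 5.98 for MME, 5.52 for B3GNT7, 5.28 for CNN2, 5.01 for CDC42EP1, 4.05 for HMX2, 3.79 for NACC2, 3.33 for MT1G, 2.94 for RGS1 and 2.33 for ZBTB46. Among those that fell it was -3.24 for ETV4, -2.13 for SPRY4, -1.64 for LRTM2, -1.20 for ZNF697 and -0.66 for ID3. ETV4 had an NT mean of 0.0119 CPM in RS411, and LRTM2 had 0.171 CPM there and 0.331 CPM in SEM.

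Among B-cell, progenitor and lymphoid genes the difference was 4.20 for TCF7, 3.22 for IKZF2, 3.13 for BANK1, 2.27 for PTPRC, 1.58 for CD180, 1.53 for IL10RA and 1.15 for FLT3. For the class II genes it was 1.25 for HLA-DQB1, 0.64 for HLA-DQA1 and 0.58 for HLA-DRB1. For the interferon-stimulated genes it was 3.12 for EPSTI1, 2.23 for IFI44 and 1.97 for USP18.

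The remaining differences above 0 were 4.81 for WDR86, 3.51 for KCNMA1, 2.71 for UNC5D, 2.55 for BIRC3, 1.56 for ABCA7, 1.33 for LIG4, 1.14 for ERN1 and 1.02 for BIK. CABLES1, SLC9A3R2 and VWCE, named because the lines differed, stood at -2.64, -2.50 and -1.90.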

How the results depend on the processing

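The count of 239 genes called between sh2 and NT was 1077 with DESeq2, 1937 without a filter on low counts and 1623 with a replicate block, and ran from 15 to 620 with 1 library left out. Other scalings, the 2 arms alone, a stricter filter and a 2-fold minimum gave 174 to 347. The 0 genes between sh2 and sh5 became 197 with DESeq2, 704 without the filter and 343 with the replicate block, and 0 to 32 with 1 library left out. The 1877 genes differing between lines became 591 against RS411 alone, 3466 with the replicate block and 934 to 4275 with 1 library left out. For NSD2 the log2 fold change was -0.76 with DESeq2 (adjusted p = 0.0208), -0.79 without the filter (3.25e-05) and -0.81 with the replicate block (0.00927), and ran from -0.98 to -0.56 with 1 library left out. The class II count of 7 was 11 with DESeq2, 11 without the filter, 12 with the replicate block and 0 to 7 with 1 library left out. The cause of these shifts was not tested.

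Of the 54 named genes called between sh2 and NT, none reversed under any setting in which they were refitted. DESeq2 and the replicate block lost 0 calls, RLE factors 1, no filter 3, upper-quartile factors 5, the stricter filter 7 and the 2 arms alone 9. Leaving out NT replicate 1 lost 14, NT replicate 2 48, NT replicate 3 41, sh2 replicate 1 30, sh2 replicate 2 37 and sh2 replicate 3 1. Same-numbered libraries of the arms were not paired in the main fit. The correlations of their deviations were 0.12, 0.17 and -0.07 between NT and sh2, and sh5 was not part of that check. On the first principal component replicate 1 was the highest of each arm, at -7.04 (NT), 77.3 (sh2) and 26.8 (sh5). Whether the replicate numbers mark a shared effect was not tested. Genes under 1 CPM rest on few reads, and every sh2 library was shallower than every NT library.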
